A study of Rattus norvegicus with 12 samples.

Results

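The nuclear-encoded subunits of the oxidative phosphorylation system were followed in cultured cardiac fibroblasts after knockdown of Yap, Wwtr1 or both. Members were chosen by gene symbol alone, as the Nduf genes of the a, b, c, s and v series, Sdha to Sdhd, the Uqcr genes, Cyc1, the Cox4 to Cox8 genes with a plain letter and number ending, and the Atp5 genes. This took 76 of the 12271 genes in the table, of which 34 belong to complex I, 4 to complex II, 9 to complex III, 12 to complex IV and 17 to complex V. Of these, 75 reached a mean of at least 10 normalized counts over all libraries and were tested with 11871 genes in all. The exception was Ndufs6, a complex I accessory subunit, which ran from 0 to 14.7 normalized counts per library and was not tested.

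Complexes I to IV of the inner mitochondrial membrane pass electrons from NADH and succinate to oxygen, and all of them except complex II pump protons. Complex V, the ATP synthase, uses the returning protons to make ATP. Most of their subunits are encoded in the nucleus, while a few subunits of complexes I, III, IV and V are encoded in mitochondrial DNA. Complex I is NADH dehydrogenase, complex II is succinate dehydrogenase, which is wholly nuclear-encoded and also works in the tricarboxylic acid cycle, complex III is the cytochrome bc1 complex and complex IV is cytochrome c oxidase. NRF1, GABPA (NRF2) and YY1 are transcription factors known for binding promoters of such genes, and TEAD factors are the DNA-binding partners of Yap and Wwtr1 (also called Taz).

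Promoters of 67 of the 76 genes were found in RefSeq (build GRCr8, from 250 bases before to 50 after each gene's start). The stretches below are shown because they belong to subunit genes that the results turn on and hold one of these motifs. Each is the 120 bases just upstream of the start, 5′ to 3′ on the gene's strand, with the motif match in capitals. For Ndufa6 (chr7:115750318-115750437, minus strand) and Atp5po (chr11:44657484-44657603, minus strand) the capitals mark GCGCANGCG, the NRF1 motif, on the other strand in Ndufa6 and overlapping on both strands in Atp5po. For Uqcrh (chr5:134790883-134791002, minus strand) and Uqcrc2 (chr1:184599120-184599239, plus strand) they mark CCGGAAG, the GABPA motif, read on the other strand.
Ndufa6: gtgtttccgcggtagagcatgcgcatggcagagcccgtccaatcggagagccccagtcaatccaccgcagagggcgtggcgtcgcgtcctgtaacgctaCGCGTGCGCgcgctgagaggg
Atp5po: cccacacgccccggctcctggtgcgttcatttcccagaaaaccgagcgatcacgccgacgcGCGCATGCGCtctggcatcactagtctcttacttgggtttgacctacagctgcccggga
Uqcrh: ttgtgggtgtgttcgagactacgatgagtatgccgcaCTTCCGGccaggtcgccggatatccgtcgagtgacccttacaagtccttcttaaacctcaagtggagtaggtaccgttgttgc
Uqcrc2: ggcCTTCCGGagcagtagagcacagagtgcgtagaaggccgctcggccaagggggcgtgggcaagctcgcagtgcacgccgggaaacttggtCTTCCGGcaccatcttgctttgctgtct

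Counted on either strand, the NRF1 motif was held by 17 of the 67 subunit promoters (25.4%), against 12.9% of the promoters of tested genes and 6.26% of all 27457 promoters in the table. These were 9 of 31 in complex I, 1 of 4 in complex II, 1 of 6 in complex III, 0 of 10 in complex IV and 6 of 16 in complex V. The GABPA motif was held by 20 of 67 (29.9%, against 17.5% of tested genes and 9.22% of all promoters), and the YY1 motif AAGATGGCG by 10 of 67 (14.9%, against 3.68% and 1.93%). The TEAD motif GGAATG was held by 5 of 67 (7.46%, against 11.2% and 13.9%), namely Ndufa1, Ndufa13, Ndufb10, Ndufb11 and Cox5a. A match is a run of letters and not a site shown to be bound, and promoters of widely expressed genes are often rich in CpG, which these shares do not take into account.

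The libraries came from primary cardiac fibroblasts of heart ventricles of Sprague Dawley rats at postnatal day 2. Cells of all groups were transfected with a pair of siRNAs per target, each at 25 nM, and the labels give collection at 48 h after transfection. The methods of the study count the time to collection from a change of medium made after transfection, so the interval is uncertain. The groups were negative siRNA (a pair of universal control siRNAs), Yap siRNA, Wwtr1 siRNA and Yap+Wwtr1 siRNA, the last called the double knockdown here, with 3 libraries each from separate litters. The reagent field of the double knockdown lists only the Wwtr1 siRNAs, while its titles name both targets. Knockdown by transfection is partial and acts on every cell type in the dish.

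The targeted genes followed the titles. Yap1 stood at 3042, 3776 and 2984 normalized counts in negative siRNA, 532, 576 and 625 in Yap siRNA, 3169, 3151 and 3184 in Wwtr1 siRNA, and the double knockdown gave 713, 739 and 1474. Wwtr1 stood at 2364, 2565 and 2280, then 2134, 2500 and 2374, then 524, 550 and 637, and 818, 731 and 1056 in the same order. Both were lowest where targeted alone, and replicate 3 of the double knockdown kept more of both than replicates 1 and 2. That library also stood apart over all genes, with a chi-square per gene of 123 and 128 against the other double knockdown libraries, where other pairs of replicates gave 19.95 to 50.4. All 12 fibroblast markers, among them Col1a1, Pdgfra and Dcn, were above 0 in every library. Their summed normalized counts were 3564926 to 3996338 in negative siRNA, 4164272 to 4353188 in Yap siRNA, 3479914 to 3746108 in Wwtr1 siRNA and 3218830 to 4387691 in the double knockdown, where 4 of the 12 rose and 3 fell (32.8% of all genes tested were called). Library totals recovered from the table were 33.9 to 41.1 M counts, and the 76 genes took 0.777 to 0.874% of them. These totals exceed the depth given in the methods of the study, for a reason not stated there.

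Subunit genes were abundant and varied little between replicates. The median residual SD was 0.0879 on the log2 scale for the 75 genes, against 0.165 over all genes tested, and their median level was 2895 normalized counts against 915.0. Changes were correspondingly small. Of the 75, 0 exceeded 0.5 in absolute log2 fold change with Yap siRNA, 3 did with Wwtr1 siRNA and 3 with the double knockdown (0, 4 and 4%), against 13.2, 16.0 and 28.4% of all genes tested.

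**Figure D1:**
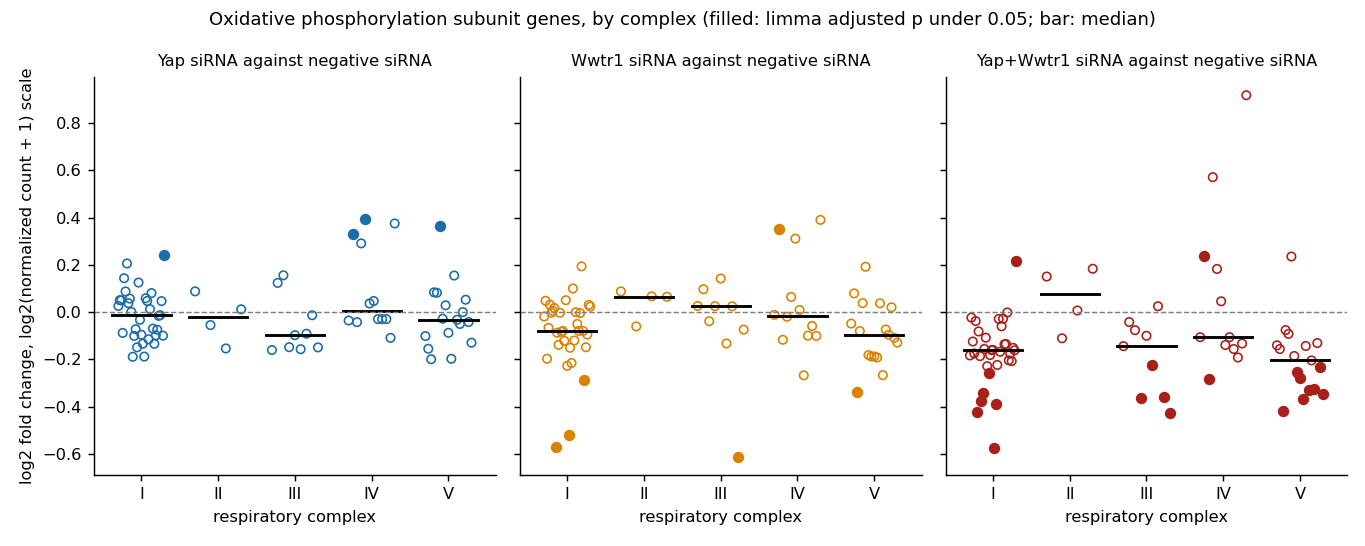
Log2 fold change against negative siRNA (vertical axis) of each tested subunit gene, by complex, for Yap siRNA, Wwtr1 siRNA and the double knockdown; bars are medians. In the double knockdown 64 of 75 genes lie below 0, and complex II is the complex whose median lies above 0, at 0.08.

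The first comparison asked what loss of Yap alone did. With Yap siRNA, 4 of 75 subunit genes rose and 0 fell (limma, adjusted p under 0.05), which is 5.33% called, against 4.8% of all genes tested (3.02% higher and 1.78% lower). The genes that rose were Cox6b1 and Cox5b of complex IV, Atp5if1 of complex V and Ndufv3 of complex I. At an unadjusted p under 0.05, limma gave 5 higher and 6 lower, where 19.7% of all genes passed. edgeR called 3 higher and 0 lower (4.52% of all genes), and DESeq2 4 higher and 1 lower (8.53% of all genes). The median log2 fold change was -0.03 over the 75 genes, and by complex it was -0.01 in I, -0.02 in II, -0.10 in III, 0.00 in IV and -0.03 in V. The median over all genes was -0.00.

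Cox6b1, a subunit of complex IV on the intermembrane-space side, stood at 5268, 5106 and 4207 normalized counts in negative siRNA and at 6770, 5917 and 6393 in Yap siRNA. All Yap siRNA libraries lay above all negative ones (log2 fold change 0.39, SE 0.0863, limma adjusted p = 0.0285). Cox5b, a zinc-binding subunit of complex IV, stood at 4808, 4270 and 4708 against 6074, 5499 and 5776, again without overlap (0.33, SE 0.0774, limma adjusted p = 0.0355). Atp5if1, the protein that inhibits ATP hydrolysis by the ATP synthase, went from 2658, 2205 and 2335 to 3230, 3000 and 3017 (0.36, SE 0.0909, limma adjusted p = 0.0443). Ndufv3, an accessory subunit beside the flavin site of complex I, went from 2251, 2169 and 2340 to 2695, 2647 and 2649 (0.24, SE 0.061, limma adjusted p = 0.045). In these 4 genes the groups did not overlap, but the calls were close to the threshold. Of all tested subunit genes, 10.7% lay wholly above negative siRNA and 13.3% wholly below. The shares of all genes tested were similar, at 13.5% and 12.6%. Without negative siRNA replicate 3, or without any single Yap siRNA library, 0 of the 4 were called. With the replicate number as a block and the double knockdown libraries left out, these 4 rose and Atp5f1c fell, 6.67% of the subunit genes against 16.3% of all genes in that fit.

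With Wwtr1 siRNA, 5 subunit genes fell and 1 rose. The share called was 8%, against 8.96% of all genes tested (5% higher and 3.96% lower). The genes that fell were Uqcrh of complex III, Ndufa6, Ndufb5 and Ndufs7 of complex I and Atp5f1c of complex V, and the gene that rose was Cox5b. The median log2 fold change was -0.06 over 75 genes against 0.00 over all genes, and by complex -0.08 in I, 0.07 in II, 0.02 in III, -0.02 in IV and -0.10 in V. At an unadjusted p under 0.05 limma gave 2 higher and 13 lower, where 23.9% of all genes passed. edgeR called 1 higher and 6 lower (8.75% of all genes), and DESeq2 1 higher and 7 lower (13% of all genes). With the replicate number as a block and the double knockdown libraries left out, 10 were called (2 higher, 8 lower), which is 13.3% against 21.7% of all genes in that fit.

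Uqcrh, the acidic hinge protein that sits beside cytochrome c1 in complex III, had the steepest fall. It stood at 2527, 2596 and 2591 normalized counts in negative siRNA, 2525, 2626 and 2496 in Yap siRNA, 1730, 1604 and 1716 in Wwtr1 siRNA, and the double knockdown gave 2158, 2087 and 1796. The Wwtr1 siRNA libraries lay below all others, the double knockdown lay in between, and Yap siRNA overlapped with negative siRNA. On the log2 scale it fell by 0.61 (SE 0.075) after Wwtr1 siRNA at a limma adjusted p of 0.000902 and by 0.36 after the double knockdown at a limma adjusted p of 0.00365. Its change of -0.01 after Yap siRNA did not pass (limma adjusted p = 0.95).

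Ndufa6, an accessory subunit of the LYR family in the matrix arm of complex I, stood at 2261, 2023 and 2013 in negative siRNA, 2241, 2188 and 2117 in Yap siRNA, 1542, 1513 and 1209 in Wwtr1 siRNA, and the double knockdown gave 1469, 1552 and 1841. On the log2 scale Ndufa6 fell by 0.57 (SE 0.108) after Wwtr1 siRNA at a limma adjusted p of 0.00726, and by 0.38 after the double knockdown at a limma adjusted p of 0.0192. Ndufb5, an accessory subunit of the membrane arm, stood at 3349, 3536 and 3495, then 3406, 2857 and 3225, then 2574, 2494 and 2185, and 1987, 2447 and 2582 in the same order of groups. In both genes the libraries with Wwtr1 siRNA, alone or with Yap siRNA, lay below every library without it. The fall of Ndufb5 was larger than its spread in both groups, by 0.52 (SE 0.104) after Wwtr1 siRNA at a limma adjusted p of 0.00941 and by 0.57 after the double knockdown at a limma adjusted p of 0.00152.

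Atp5f1c, the gamma subunit that forms the rotating stalk of the ATP synthase, went from 5644, 5454 and 5957 in negative siRNA to 4386, 4615 and 4499 in Wwtr1 siRNA, and the double knockdown gave 3993, 4404 and 4352, with 5082, 4573 and 5216 in Yap siRNA. It fell by 0.34 (SE 0.0686, limma adjusted p = 0.0103) and by 0.42 (limma adjusted p = 0.000773), and its change of -0.20 with Yap siRNA did not pass (limma adjusted p = 0.129), though it did with the replicate block and without the double knockdown libraries (limma adjusted p = 0.044). Ndufs7, a core subunit of complex I that carries an iron-sulfur cluster, stood at 1905, 1975 and 2032 against 1605, 1607 and 1626 with Wwtr1 siRNA. The groups were apart (-0.29, SE 0.0737, limma adjusted p = 0.0318), while the double knockdown at 1583, 1850 and 1811 did not pass (-0.18, limma adjusted p = 0.089). Cox5b stood at 5768, 5749 and 6060 with Wwtr1 siRNA, above every negative siRNA library (0.35, limma adjusted p = 0.0154). The falls of Uqcrh, Ndufa6 and Ndufb5 were called in all 12 fits that left out 1 library, that of Atp5f1c in 11, the rise of Cox5b in 10 and the fall of Ndufs7 in 6.

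**Figure D2:**
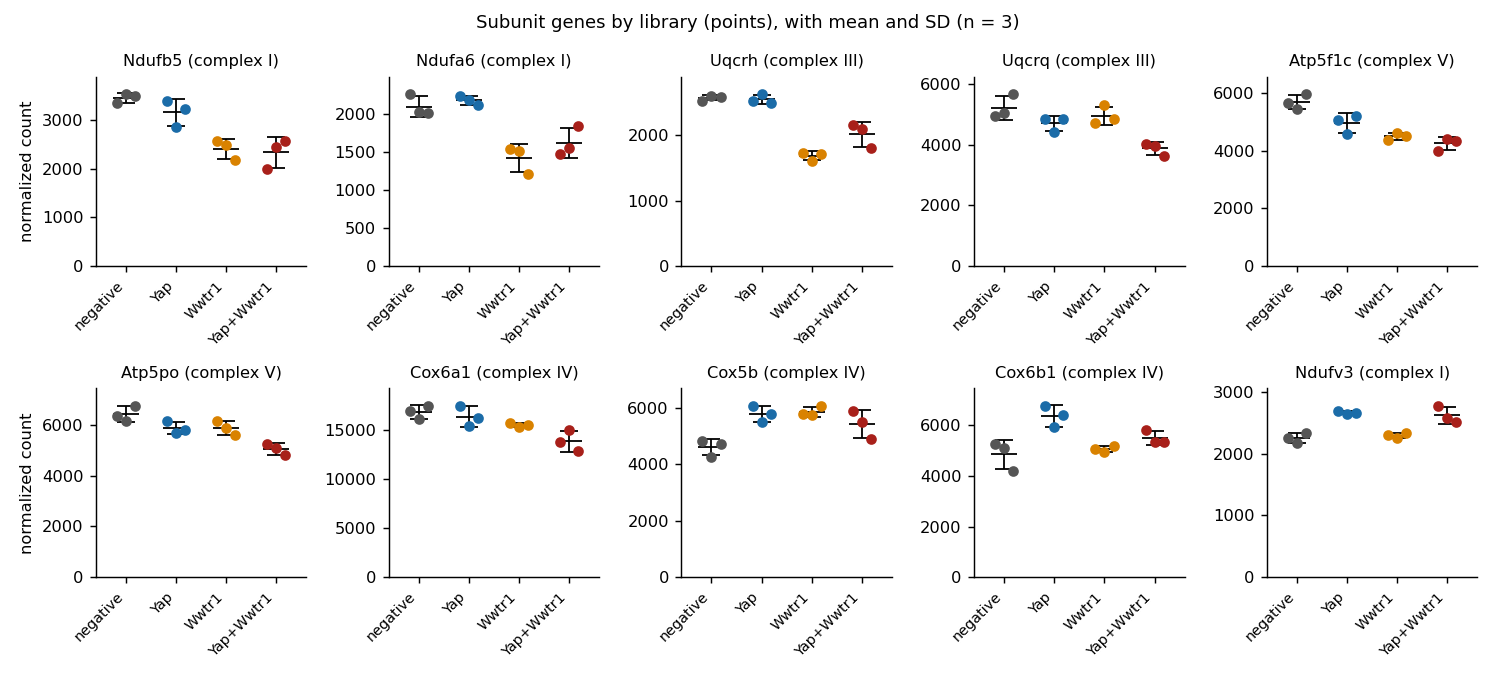
Normalized counts (vertical axis, from 0) of 10 subunit genes in each of the 12 libraries by siRNA group; points are libraries and the marks give the mean and SD (n = 3). Uqcrh, Ndufa6 and Ndufb5 are low in the groups that received Wwtr1 siRNA, while Uqcrq, Atp5po and Cox6a1 are lowest in the double knockdown.

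In the double knockdown, 19 of 75 subunit genes fell and 2 rose. The share called was 28%, against 32.8% of all genes tested, and it was uneven in direction, with 25.3% of subunit genes lower against 15.6% of all genes and 2.67% higher against 17.1%. The median log2 fold change was -0.16 against 0.00 over all genes, and 64 of the 75 (85.3%) lay below 0 against 49.5% of all genes. In 35 genes (46.7%) all double knockdown libraries lay below all negative ones, and in 5 (6.67%) all lay above, where all genes gave 21.5% and 23.1%. At an unadjusted p under 0.05 limma gave 4 higher and 32 lower, where 42.8% of all genes passed. edgeR called 2 higher and 21 lower (32.5% of all genes), and DESeq2 2 higher and 23 lower (35.4% of all genes). With upper-quartile scaling the share of subunit genes called was above that of all genes, with 32 of 75 (1 higher, 31 lower) against 33.7%. Without replicate 3 of the double knockdown, which stood apart, 20 genes were called and the median was -0.13. In bulk libraries, a change in the number of cells of a type and a change in RNA per cell cannot be told apart.

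The lower values were spread over the libraries of the double knockdown. Relative to the mean of negative siRNA, the median over the 75 genes was -0.12, -0.14 and -0.19 in its 3 libraries, against 0.00, -0.04 and 0.03 in negative siRNA, 0.05, -0.08 and -0.02 in Yap siRNA and -0.04, -0.05 and -0.09 in Wwtr1 siRNA. The double knockdown thus lay below the other 9 libraries. For complex V the values of its 3 libraries were -0.23, -0.23 and -0.21, for complex III -0.25, -0.13 and -0.23, for complex I -0.10, -0.16 and -0.21, for complex IV -0.03, -0.11 and -0.08 and for complex II 0.07, 0.13 and 0.02.

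**Figure D3:**
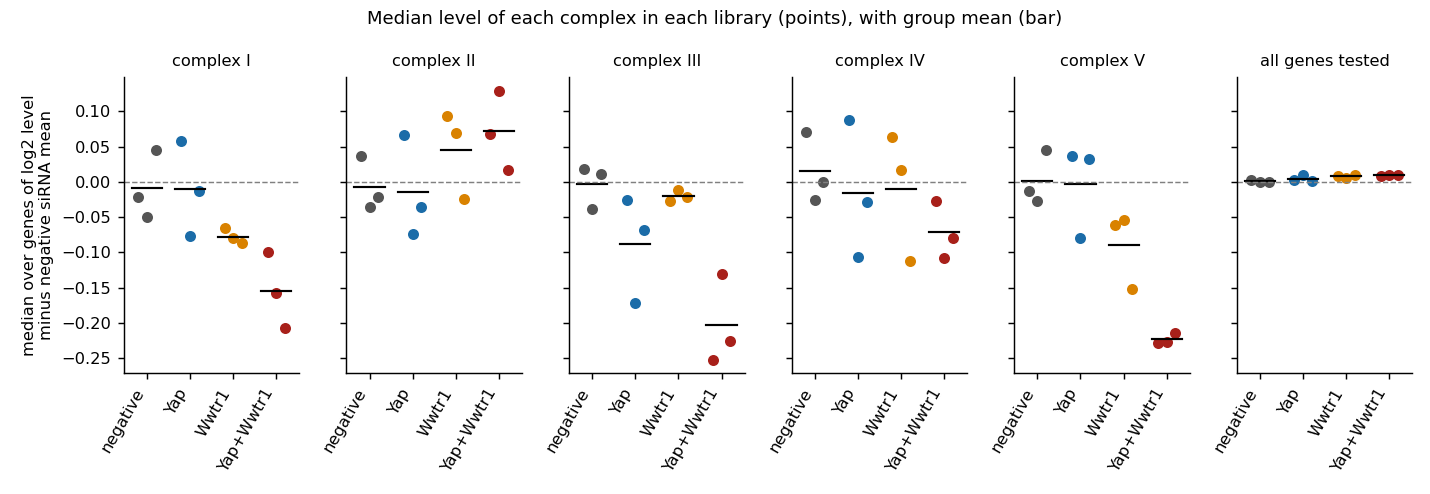
Median log2 difference from the negative siRNA mean (vertical axis) over the tested subunit genes of each complex, and over all genes tested. Points are libraries by siRNA group, and bars are group means. The double knockdown libraries lie at -0.23, -0.23 and -0.21 in complex V, and above 0 in complex II.

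By complex, 8 of 17 genes of complex V (47.1%) and 4 of 9 of complex III (44.4%) fell. In complex I 6 of 33 fell (18.2%), in complex IV 1 of 12 and in complex II 0 of 4. Of all genes tested 15.6% fell, a share close to that of complex I. For complex II, 1 gene had an unadjusted p under 0.05 with limma, and edgeR and DESeq2 called 0. 1 gene rose in each of complexes I and IV, where 17.1% of all genes tested rose. The median log2 fold change was -0.20 in complex V, -0.16 in I, -0.14 in III, -0.11 in IV and 0.08 in II. The differences between complexes were not tested. Of the 17 fallen genes with a promoter, 29.4% held the NRF1 motif, 41.2% the GABPA motif, 23.5% the YY1 motif and 5.88% the TEAD motif, against 24%, 26%, 12% and 8% of the other 50 subunit promoters, and these differences were not tested either. The complex V count was 5 without negative siRNA replicate 3, 5 without double knockdown replicate 1 and 5 with only the compared groups. It was 12 with upper-quartile scaling, which also gave 13 falls in complex I.

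Genes of every place in complex V but the inhibitor lay below 0. Genes beyond the naming rule were picked for description here after their values were seen, as were the groups by place in the complex. Of 4 peripheral stalk genes, which hold the head still against the rotor, 3 fell and all 4 lay below 0 (median -0.28). Atp5po, the subunit that joins this stalk to the head, stood at 6358, 6156 and 6748 in negative siRNA, 6148, 5659 and 5806 in Yap siRNA, 6150, 5883 and 5587 in Wwtr1 siRNA, and the double knockdown gave 5258, 5080 and 4798. Every double knockdown library was below every other library (-0.35, SE 0.0649, limma adjusted p = 0.00178). Atp5pb, the b subunit of the stalk, went from 5593, 5764 and 6236 to 4696, 4348 and 5016, also without overlap (-0.32, limma adjusted p = 0.00392), and Atp5pf, coupling factor 6, changed by -0.23 (limma adjusted p = 0.0335).

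Of 3 genes for the c subunit, which forms the proton-driven ring of the rotor, Atp5mc3 (-0.28, limma adjusted p = 0.00715) and Atp5mc2 (-0.25, limma adjusted p = 0.0341) fell. The membrane subunits Atp5mf (-0.33, limma adjusted p = 0.00695) and Atp5md (-0.37, limma adjusted p = 0.0382) fell among 4 of their kind. Of 5 genes of the head and central stalk, all lay below 0 (median -0.14) and Atp5f1c passed, while limma gave 3 lower at an unadjusted p under 0.05 and DESeq2 called 2. Differences between places in the complex were not tested. Atp5f1a, the alpha subunit, stood at 19764, 20862 and 19999 against 18549, 18520 and 17935 in the double knockdown, and Atp5f1b, the catalytic beta subunit, at 37577, 37955 and 39584 against 32744, 37364 and 33361. For both, the double knockdown libraries lay below all negative ones, with log2 fold changes of -0.14 (limma adjusted p = 0.0861) and -0.16 (limma adjusted p = 0.105), which did not pass. Atp5if1 had the opposite sign at 0.24 (limma adjusted p = 0.0663).

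In complex III, 3 of the 5 small subunits without a redox centre fell (median -0.36). Uqcrq, a small subunit bound near cytochrome b, stood at 4946, 5039 and 5659 in negative siRNA, 4849, 4407 and 4841 in Yap siRNA, 4725, 5291 and 4841 in Wwtr1 siRNA, and the double knockdown gave 4029, 3958 and 3629. The double knockdown lay below all other groups (-0.43, SE 0.0762, limma adjusted p = 0.00134). Uqcrb, which also contacts cytochrome b, went from 1922, 1948 and 2138 to 1541, 1564 and 1560 (-0.36, limma adjusted p = 0.00495), and was not lower with Wwtr1 siRNA at 1909, 2098 and 2108. The core protein Uqcrc2 fell from 6032, 6158 and 5902 to 4986, 5387 and 5127 (-0.22, SE 0.0536, limma adjusted p = 0.00761), while its partner Uqcrc1 changed by -0.10 (limma adjusted p = 0.347).

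The redox subunits of complex III did not pass. Cyc1, cytochrome c1, stood at 4562, 4311 and 4495 in negative siRNA and 3723, 4167 and 4226 in the double knockdown, where all were below the negative libraries (-0.14, SE 0.0727, limma adjusted p = 0.152). Uqcrfs1, the Rieske iron-sulfur protein, stood at 5930, 5289 and 5578 against 5306, 5871 and 5919, with overlap (0.03, limma adjusted p = 0.82). At an unadjusted p under 0.05, limma called 0 of this pair, as did edgeR and DESeq2 at an adjusted p under 0.05.

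In complex I, the 6 genes that fell in the double knockdown were accessory subunits, and 0 of the 7 core subunits passed. The share of complex I that fell was close to that of all genes tested. By limma's unadjusted p under 0.05, 4 core genes were lower, and edgeR called 1 and DESeq2 2 of them. The core genes all lay below 0, from -0.21 to -0.03 with a median of -0.15, while the 26 accessory genes had a median of -0.17. Ndufs1, the largest core subunit, stood at 2553, 2686 and 2703 in negative siRNA and 2543, 2545 and 2704 in the double knockdown, so the groups overlapped (-0.03, SE 0.0591, limma adjusted p = 0.757). Ndufv1, which binds NADH and flavin, changed by -0.15 (limma adjusted p = 0.0547).

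Beside Ndufb5 and Ndufa6, the accessory genes that fell were Ndufa2, Ndufb6, Ndufa7 and Ndufb11. Ndufa2, a small subunit of the NADH-oxidising module, stood at 1347, 1302 and 1457 in negative siRNA, 1557, 1317 and 1497 in Yap siRNA, 1355, 1333 and 1409 in Wwtr1 siRNA, and the double knockdown gave 1005, 1066 and 994.2. Neither single knockdown lay apart from negative siRNA, and the double knockdown lay below all (-0.42, SE 0.0811, limma adjusted p = 0.00217). Ndufb6 of the membrane arm fell by 0.39 (limma adjusted p = 0.00145), Ndufa7 by 0.34 (limma adjusted p = 0.0175) and Ndufb11 by 0.26 (limma adjusted p = 0.0169). Ndufv3 rose, at 2775, 2571 and 2514 against 2251, 2169 and 2340, without overlap (0.22, limma adjusted p = 0.0177). Ndufa4, counted here by its symbol but known as a subunit of complex IV, changed by -0.08 (limma adjusted p = 0.48).

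Complex II showed no call in the double knockdown. Sdha, the flavoprotein that oxidises succinate, stood at 5369, 5202 and 4790 in negative siRNA and 5867, 5666 and 5508 in the double knockdown, all above the negative libraries (0.15, SE 0.0615, limma adjusted p = 0.0802). Sdhb, the iron-sulfur subunit, stood at 4035, 3893 and 4539 against 3720, 3973 and 3836 (-0.11, limma adjusted p = 0.232). The membrane anchors Sdhc and Sdhd changed by 0.01 (limma adjusted p = 0.957) and 0.18 (limma adjusted p = 0.165). Between Yap and Wwtr1 siRNA, Sdhc differed by -0.22 (limma adjusted p = 0.0954), which passed with the replicate block and without the double knockdown libraries (limma adjusted p = 0.0423).

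**Figure D4:**
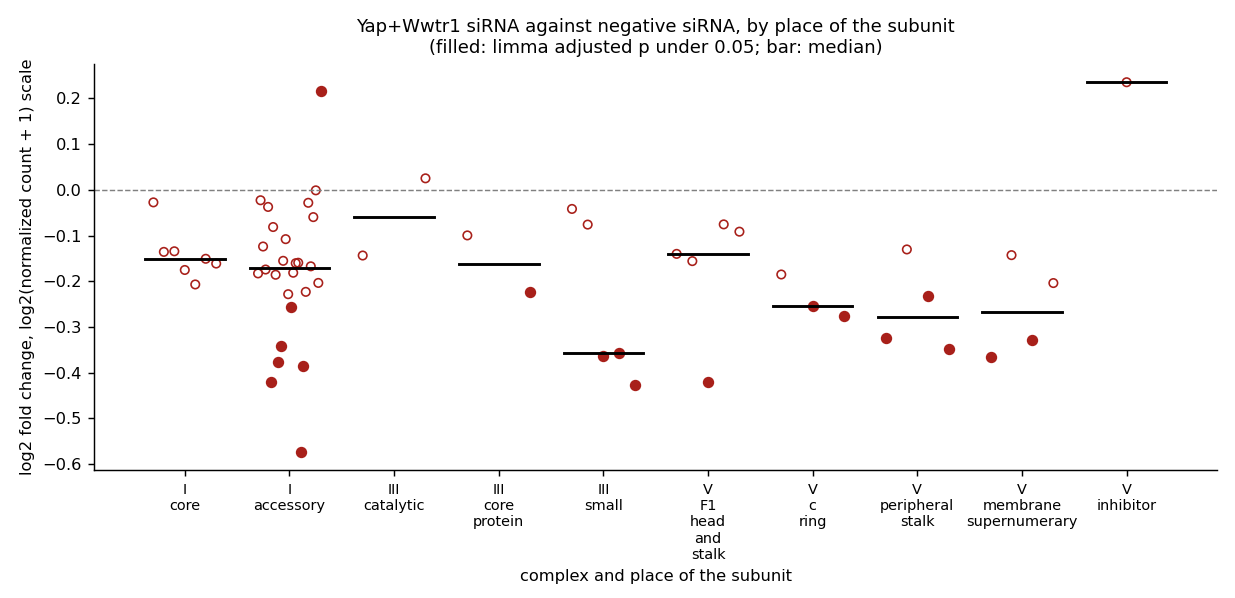
Log2 fold change of the double knockdown against negative siRNA (vertical axis) for subunit genes of complexes I, III and V by place in the complex; filled points passed limma's adjusted p of 0.05 and bars are medians. The small subunits of complex III have a median of -0.36 and the peripheral stalk of complex V one of -0.28, against -0.15 for the core of complex I.

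In complex IV, Cox6a1, the widely expressed form of subunit 6A, stood at 16927, 16077 and 17485 in negative siRNA, 17472, 15381 and 16220 in Yap siRNA, 15739, 15329 and 15473 in Wwtr1 siRNA, and the double knockdown gave 13754, 14969 and 12848. The double knockdown lay below all other libraries (-0.28, SE 0.0714, limma adjusted p = 0.0102). Cox5b rose in the double knockdown as in both single knockdowns, at 5878, 5505 and 4892, with replicate 3 closest to negative siRNA (0.24, limma adjusted p = 0.0344). Of the 21 calls of the double knockdown, 13 were kept in all 12 fits that left out 1 library. The others were Ndufa7 (kept in 11), Ndufv3 (10), Ndufa6 and Ndufb11 (9), Cox5b and Atp5pf (8) and Atp5md and Atp5mc2 (7). Cox6b1 stood at 5797, 5336 and 5354 (0.18, limma adjusted p = 0.127), and Cox5a, which neighbours Cox5b on the matrix side, changed by -0.11 (limma adjusted p = 0.22). The widely expressed forms Cox7a2 (-0.11, limma adjusted p = 0.318) and Cox8a (-0.13, limma adjusted p = 0.395) did not pass.

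The forms of complex IV subunits known from heart and skeletal muscle varied widely between replicates. Cox6a2 stood at 2553, 2374 and 1596 in negative siRNA, 3751, 2898 and 1631 in Yap siRNA, 2347, 2742 and 1444 in Wwtr1 siRNA, and the double knockdown gave 2450, 3843 and 3372. Cox8b stood at 111, 149 and 41.3, then 134, 176 and 63.9, then 154, 138 and 73.2, and 167, 160 and 176. In both genes replicate 3 was the lowest of its group in negative, Yap and Wwtr1 siRNA but not in the double knockdown. Neither difference passed (0.57, SE 0.314, limma adjusted p = 0.186 for Cox6a2, and 0.92, SE 0.473, limma adjusted p = 0.159 for Cox8b), and Cox6b2, known as a testis form, changed by 0.05 (limma adjusted p = 0.938). Cox7a1 was not among the genes in the table.

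Cardiomyocyte markers varied between replicates in a similar way. Of 20 markers 19 were in the table, and their sum was 82359, 84454 and 47559 normalized counts in negative siRNA, 93078, 92406 and 55028 in Yap siRNA, 80901, 96059 and 51709 in Wwtr1 siRNA, and the double knockdown gave 92747, 106407 and 81066. The sum was lowest in replicate 3 of each group. Ckmt2 was at 0 in 5 libraries, and no other marker of this list was at 0. In the double knockdown 4 of 18 tested markers rose (Myh6 1.83, Ckm 1.66, Tnni3 1.12 and Myl2 1.09 on the log2 scale), 1 fell (Myl4, -0.88), and the median was 0.66, where 17.1% of all genes tested rose and 15.6% fell. Their part in the values of Cox6a2 and Cox8b was not tested. The sum of 11 macrophage genes was 33224, 25790 and 23026 in negative siRNA, 29001, 23155 and 19523 in Yap siRNA, 12045, 20288 and 17772 in Wwtr1 siRNA, and the double knockdown gave 7149, 14213 and 49395. The Wwtr1 siRNA libraries and replicates 1 and 2 of the double knockdown lay below negative siRNA, while replicate 3, the library that stood apart, lay above it (1 of the 11 genes fell, and Cx3cr1 was at 0 in 1 library). The sum of 10 endothelial genes was 1225 to 1573 in negative siRNA, 1633 to 1933 in Yap siRNA, 1608 to 1711 in Wwtr1 siRNA and 1815 to 2718 in the double knockdown (5 rose there, and Emcn and Cldn5 were at 0 in some libraries). The sum of 7 smooth muscle genes was 414970 to 555422, 271496 to 362889, 344838 to 458186 and 144991 to 285220 in the same order (2 fell in the double knockdown). Both lists lay apart from negative siRNA with Yap siRNA and with the double knockdown, and the endothelial list with Wwtr1 siRNA too. Their part in the subunit values of each knockdown was likewise not tested.

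Compared directly, 6 of 75 subunit genes were higher with Yap siRNA than with Wwtr1 siRNA and 0 were lower, against 8.79% of all genes called (4.57% higher and 4.22% lower). At an unadjusted p under 0.05 limma gave 16 higher and 5 lower, where 24.4% of all genes passed. edgeR called 5 higher and 0 lower (8.63% of all genes), and DESeq2 9 higher and 3 lower (13% of all genes). With the replicate number as a block and only the negative, Yap and Wwtr1 siRNA libraries, limma called 17 (12 higher, 5 lower), which is 22.7% of the subunit genes against 23% of all genes in that fit. The differences were 0.63 for Ndufa6 (limma adjusted p = 0.00567), 0.60 for Uqcrh (limma adjusted p = 0.00103), 0.39 for Ndufb5 (limma adjusted p = 0.0404), 0.33 for Cox6b1 (limma adjusted p = 0.0369), 0.27 for Ndufs7 (limma adjusted p = 0.0405) and 0.22 for Ndufv3 (limma adjusted p = 0.0462). Those of Ndufa6 and Uqcrh were called in all 12 fits that left out 1 library, that of Cox6b1 in 7, those of Ndufb5 and Ndufs7 in 3 and that of Ndufv3 in 2. The median over the 75 genes was 0.03.

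Whether the double knockdown departed from the sum of both single effects was tested as an interaction on the log2 scale. limma called 0 of 75 subunit genes, against 1.03% of all genes tested, with 1 higher and 7 lower at an unadjusted p under 0.05, which 14% of all genes passed. edgeR called 0 (0.859% of all genes) and DESeq2 called 2, both lower (4.24% of all genes). The median interaction was -0.07 over the subunit genes and 0.01 over all genes. The most negative value among the genes described was that of Ndufa2 at -0.51 (SE 0.115, limma adjusted p = 0.059), followed by Cox5b at -0.45 (SE 0.11, limma adjusted p = 0.0751). The comparisons with negative siRNA share its 3 libraries, so their values are given side by side only.

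Of 11 listed subunit genes that the symbol rule leaves out, 6 were tested. In the double knockdown Cox4i2, the form of complex IV subunit 4 known to rise in low oxygen, stood at 445, 497 and 403 against 223, 137 and 244 (1.19, SE 0.233, limma adjusted p = 0.00239). The widely expressed Cox4i1 changed by -0.07 (limma adjusted p = 0.447). Cox7a2l, which joins complexes III and IV into supercomplexes, went from 9615, 9402 and 9377 to 7190, 7868 and 7806 (-0.31, limma adjusted p = 0.00214), and Ndufab1, the acyl carrier protein of complex I, fell too (limma adjusted p = 0.00995). The listed symbols of the 13 mitochondrially encoded subunits were not among the genes in the table.

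Assembly factors, which build the complexes without remaining in them, were mixed in the double knockdown, with 3 of 41 higher and 8 lower and a median of 0.01, a share called below the 32.8% of all genes. Cox11, needed for copper insertion into complex IV, stood at 210, 170 and 206 in negative siRNA and the double knockdown stood at 81.6, 114 and 104 (-0.97, SE 0.185, limma adjusted p = 0.00207). The largest rise was that of Coa7, from 344, 305 and 367 to 525, 416 and 460 (0.46, limma adjusted p = 0.0174). With Yap siRNA 1 fell (Ndufaf4, -0.44, limma adjusted p = 0.0424), where 4.8% of all genes were called, and with Wwtr1 siRNA 1 rose and 3 fell, a share close to the 8.96% of all genes.

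Among 19 regulators of mitochondrial biogenesis, 2 rose and 3 fell in the double knockdown (median 0.06), again a share below the 32.8% of all genes. Ppargc1a, the coactivator PGC-1 alpha, went from 51.3, 42.0 and 36.2 to 161, 115 and 95.6, without overlap (1.48, SE 0.364, limma adjusted p = 0.00884), and Ppard rose by 0.38 (limma adjusted p = 0.00625). Tfb1m, a methyltransferase of mitochondrial ribosomal RNA, went from 581, 513 and 569 to 399, 380 and 387 (-0.51, limma adjusted p = 0.00142). Gabpb1, a partner of GABPA, changed by -0.49 (limma adjusted p = 0.00152) and Pprc1, a coactivator related to PGC-1 alpha, by -0.33 (limma adjusted p = 0.00751).

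Of 23 genes of the tricarboxylic acid cycle and pyruvate entry, 2 rose and 5 fell in the double knockdown, with a median of -0.16 and a share called close to the 32.8% of all genes. Pdk2, a kinase that inhibits pyruvate dehydrogenase, rose from 1080, 913 and 739 to 1484, 1756 and 1522 (limma adjusted p = 0.00216). Mdh2, mitochondrial malate dehydrogenase, fell from 12202, 12310 and 13545 to 9103, 10464 and 9987 (-0.37, limma adjusted p = 0.00779), and Pdha1, the alpha subunit of pyruvate dehydrogenase, by 0.27 (limma adjusted p = 0.0104). Mitochondrial ribosomal proteins had 1 of 68 higher and 13 lower (median -0.10). Their share lower was 19.1%, near the 15.6% of all genes. Cytosolic ribosomal proteins, which use none of these complexes, had 0 of 80 higher and 69 lower (median -0.44), or 86.25% lower. Of them 1 rose with Yap siRNA, where 4.8% of all genes were called, and 1 rose and 7 fell with Wwtr1 siRNA, a share close to the 8.96% of all genes.

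**Figure D5:**
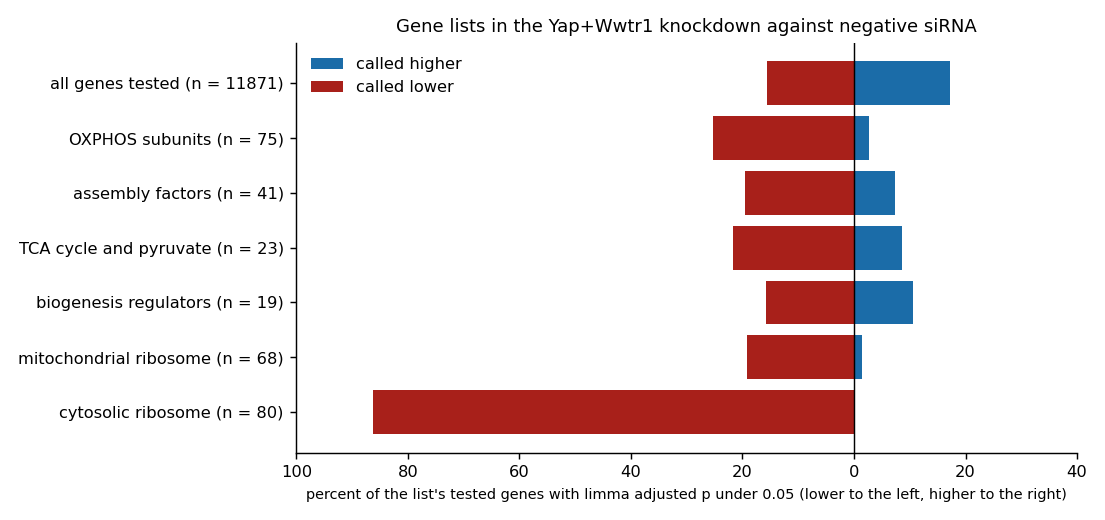
Percent of tested genes called higher and lower in the double knockdown against negative siRNA (horizontal axis, from 0) for all genes, the subunit genes and related lists. Lower calls make up 15.6% of all genes and 25.3% of the subunit genes, and the cytosolic ribosome stands out with 69 of 80 genes lower.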

How the data were processed

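RNA was sequenced from 12 libraries in 4 siRNA groups (33.9 to 41.1 M counts in the table, above the depth given in the methods). Per the study's methods and the submitters' processing notes, the authors trimmed reads with Trim Galore 0.6.5, aligned them to rn6 with HISAT2 and assembled transcripts with StringTie. The deposited table holds a signal unit, gene counts divided by size factors. The strand setting of the counting is not given in the sources used here, so overlapping genes and processed pseudogenes, common among these subunit genes, could share reads. All 147252 of 147252 values were whole multiples (within 0.01) of what 1 read was worth in their library, a step taken from the differences between low values, since the lowest value itself was not 1 read in every library. The totals rest on that step, and edgeR and DESeq2 on these recovered counts served as alternatives. Over all genes edgeR called 536 with Yap siRNA, 1039 with Wwtr1 siRNA and 3864 with the double knockdown, where DESeq2 called 1013, 1545 and 4205 and limma 570, 1064 and 3888. Deposited tables of the authors' comparisons hold fold changes and p-values and were not used.

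log2(normalized count + 1) values of 11871 genes with a mean of at least 10 were fitted with limma 3.58.1 in R 4.3.3 (all 12 libraries, trended eBayes, two-sided, no covariate), with Benjamini-Hochberg adjustment over all of them and a threshold of 0.05. The method was tested on simulated data. Fold changes on this scale understate changes of low genes. Alternatives were a replicate block, edgeR 4.0.16, DESeq2 1.42.0, other scalings, pseudocounts of 0.1 and 10, a minimum mean of 100, no filter, no trend, only the compared groups, and leaving out each library.

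The members and lists were chosen with earlier results of these data known. Named with values were a fixed set of core subunits and isoform pairs, and per comparison and complex the largest called rise and fall among genes averaging at least 100 normalized counts. In related lists the called genes with the largest changes were named. Other names, and the groups by place in a complex, were added after values were seen. 1 gene that the naming rule takes is not reported here. Libraries came from separate litters and replicates did not agree within sampling noise (lowest chi-square per gene 19.95). Same-numbered libraries of negative, Yap and Wwtr1 siRNA deviated together, with 9 pairwise correlations of 0.10 to 0.28 over all genes tested. Over the subunit genes these correlations were 0.18 to 0.82. The main fit did not take this pairing into account, and the replicate block was an alternative only. Correlations over all genes with the double knockdown ran from -0.13 to 0.18.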

Additional observations from a re-analysis of the deposited data

How the results depend on the processing

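The subunit genes had a median of 2895 normalized counts, and the effect of depth was not tested. None of the 23 named gene changes reversed under the alternatives run for them, where the call was kept 454 times and lost 89 times. For Yap siRNA against negative siRNA the 4 calls became 2 with upper-quartile scaling, 0 without the trend, 1 with only the compared groups and 5 (4 higher, 1 lower) with the replicate block and without the double knockdown libraries. Leaving out 1 library gave 0 to 4 calls and a median of -0.058 to 0.017, the count falling to 0 without negative siRNA replicate 3 or any Yap siRNA library, to 1 without negative or Wwtr1 siRNA replicate 2 and to 2 without negative siRNA replicate 1, Wwtr1 siRNA replicate 1 or 3, or double knockdown replicate 2.

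For Wwtr1 siRNA the 6 calls became 10 with the replicate block and without the double knockdown libraries, and 4 to 8 with 1 library left out. The median then ran from -0.071 to -0.035. For the double knockdown the 21 calls became 32 with upper-quartile scaling, which moved the median of all genes to -0.04, and 24 with the replicate block. They became 18 without the trend and 15 (0 higher, 15 lower) with only the compared groups. Leaving out 1 library gave 15 to 22 calls and a median of -0.167 to -0.133. For Yap against Wwtr1 siRNA the 6 calls became 12 with DESeq2, 17 with the replicate block when the double knockdown libraries were left out, and 2 without the trend. Leaving out 1 library gave 2 to 9 calls and a median of 0.012 to 0.077, with 2 calls without Yap siRNA replicate 1 or 3 or any Wwtr1 siRNA library and 3 without any negative one. The interaction had 2 calls with DESeq2, and 0 to 1 with 1 library left out (1 without Yap siRNA replicate 2). Its median ran from -0.096 to -0.035 in the fits with 1 library left out. Apart from the fits that hold fewer libraries, the cause of these shifts was not tested. Same-numbered libraries did not all deviate together where the double knockdown was involved, so its block count is not read as a paired result.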
